A study of Homo sapiens with 6 samples.

Results

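The enzymes that make serine from a glycolytic intermediate and pass its carbon to folate were followed in SW480 cells with and without ZEB1. The set was chosen by gene name and holds 9 genes of the 32029 listed in the count files: PHGDH, PSAT1, PSPH, SHMT1, SHMT2, MTHFD1, MTHFD2, MTHFD1L and ALDH1L2. All 9 passed the filter on low counts, which kept 14996 genes. SW480 is an established human colorectal adenocarcinoma cell line, and ZEB1 is a zinc-finger transcription factor best known as a repressor of epithelial genes. RNA was sequenced from 3 cultures transfected with a control siRNA (labelled siNC, genotype WT) and 3 cultures transfected with an siRNA against ZEB1 (labelled siZEB1, genotype ZEB1 knockdown), 48 h after transfection according to the series record. The model is 1 cell line and 1 siRNA label, and the siRNA sequence was not given in the sources used here.

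Serine is made from the glycolytic intermediate 3-phosphoglycerate in a chain of reactions run by PHGDH, PSAT1 and PSPH. Serine hydroxymethyltransferases then move a carbon from serine onto tetrahydrofolate (THF), giving glycine, and further folate enzymes oxidise that carbon to the formyl form used in purine synthesis or release it as formate. Cells keep parallel sets of these folate enzymes in the mitochondrion and in the cytosol, and proliferating tumour cells commonly make much of their formate in the mitochondrion. Of the enzymes followed here, 5 act in the cytosol (PHGDH, PSAT1, PSPH, SHMT1 and MTHFD1) and 4 in the mitochondrion (SHMT2, MTHFD2, MTHFD1L and ALDH1L2).

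Between 19040636 and 22357633 reads were counted on genes per culture, and the 9 enzymes took between 0.105% and 0.117% of them. ZEB1 itself had 1247, 1276 and 908 reads with siNC and 136, 132 and 162 reads with siZEB1, a log2 FC (fold change of siZEB1 over siNC) of -2.85 (SE 0.11, adjusted p = 4.85e-12, edgeR). The colorectal label was checked against the 8 of 9 epithelial markers that the files list: KRT8 and KRT18 were abundant, EPCAM, KRT19 and VIL1 were higher and CDX2 lower in siZEB1, CDH17 and LGALS4 were near 0, and the summed level was 4813 to 5438 CPM (reads of a gene after scaling all libraries to one size) in siNC and 5329 to 6002 CPM in siZEB1. Leukocyte markers summed to at most 0.882 CPM in any culture, and markers of fibroblasts and endothelium to at most 12.9 CPM, most of it COL1A1. In bulk RNA, fewer cells of a kind and less RNA per cell cannot be told apart.

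Levels are given as CPM after scaling by TMM, a method that corrects library sizes for differences in composition, and group values as the mean ± SD (n = 3). Groups were compared by the two-sided quasi-likelihood test of edgeR, p-values were adjusted by the Benjamini-Hochberg method across all 14996 genes, and a gene was called at an adjusted p below 0.05. The p-values measure the spread between these cultures.

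PSAT1 fell by 64.8% after ZEB1 knockdown, PSPH and MTHFD2 rose, and MTHFD1 fell by a smaller amount. The other 5 enzymes were not called. Thus 4 of 9 enzymes were called, 2 higher and 2 lower, against 40.2% of all genes tested in either direction, 19% higher and 21.2% lower. The median log2 FC of the 9 enzymes was 0.06, and that of all genes tested was -0.0055. In 4 of the 9 the groups of cultures did not overlap, against 49.5% of all genes tested. These shares lie close to the background, so the counts say nothing particular about the set, and the results below are those of single enzymes.

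**Figure D1:**
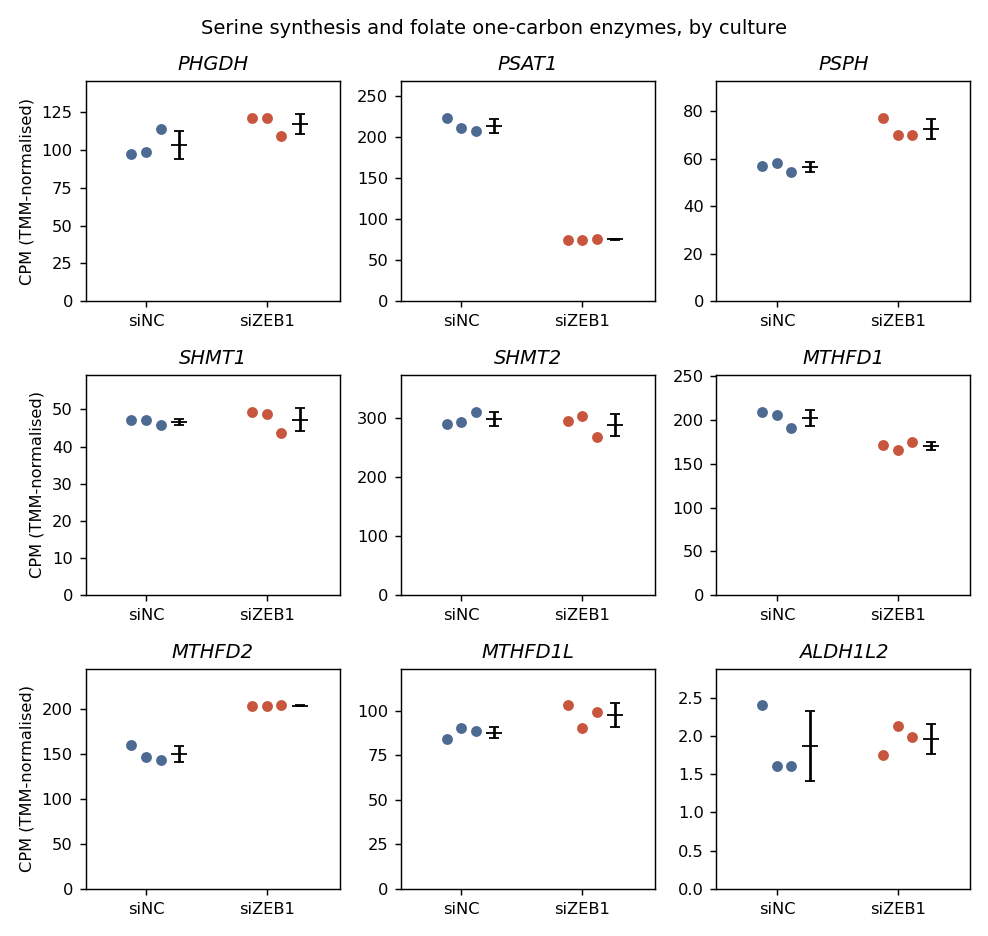
Level of each of the 9 enzyme genes in CPM (vertical axis from 0) in the 3 siNC and 3 siZEB1 cultures; points are cultures and bars are the mean ± SD. PSAT1 drops from above 207 CPM in each siNC culture to 76.1 CPM or less in each siZEB1 culture, while SHMT1 and SHMT2 overlap between the groups.

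PHGDH oxidises 3-phosphoglycerate, the first step of serine synthesis. The gene (ENSG00000092621) lies on chromosome 1 from 119648411 to 119744226 on the plus strand of GRCh38. It had 2063, 2203 and 2196 reads with siNC and 2289, 2322 and 2092 reads with siZEB1, or 97.0, 98.4 and 114 CPM against 121, 121 and 109 CPM. The groups overlapped, because the third siNC culture lay above the third siZEB1 culture. The mean level was 103 ± 9.39 CPM (SD, n = 3) in siNC and 117 ± 6.76 CPM (SD, n = 3) in siZEB1. The log2 FC of 0.18 (SE 0.07, 95% interval 0.03 to 0.34) missed the threshold with an adjusted p of 0.0557 in edgeR's test. PHGDH stayed uncalled in 8 of 12 alternatives and passed in 4. Without the third siNC culture the log2 FC was 0.26 with an adjusted p of 0.00281. Without the third siZEB1 culture it was 0.23 with 0.0234. Without the second siNC culture it was 0.15 with an adjusted p of 0.207, the highest of the 12.

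PSAT1 is the aminotransferase that turns the PHGDH product into phosphoserine with nitrogen from glutamate. The gene (ENSG00000135069) lies on chromosome 9 from 78297143 to 78330093 on the plus strand. It had 4756, 4730 and 3993 reads with siNC and 1416, 1441 and 1456 reads with siZEB1. The groups were far apart, and the siZEB1 cultures differed little among themselves. The level was 214 ± 8.61 CPM (SD, n = 3) in siNC and 75.3 ± 0.636 CPM (SD, n = 3) in siZEB1. The log2 FC was -1.51 (SE 0.06, 95% interval -1.64 to -1.38, adjusted p = 8.11e-12, edgeR), and the siNC level was 2.84-fold the siZEB1 level. Of all genes tested, 117, or 0.78%, fell by at least as much.

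PSPH removes the phosphate from phosphoserine and so completes serine synthesis. The gene (ENSG00000146733) lies on chromosome 7 from 56011051 to 56051604 on the minus strand. It had 1210, 1307 and 1048 reads in siNC and 1459, 1350 and 1340 reads in siZEB1. After scaling, each siZEB1 culture lay above each siNC culture, at 70.0 CPM or more against 58.4 CPM or less. The mean rose from 56.5 ± 2.02 to 72.5 ± 4.14 CPM (n = 3 each, SD), a log2 FC of 0.36 (SE 0.07, 95% interval 0.21 to 0.50, adjusted p = 0.000514, edgeR).

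The balance along the serine chain is shown by ratios of read counts within each culture, which need no scaling between libraries. PSAT1 had 2.31, 2.15 and 1.82 reads per PHGDH read in the siNC cultures and 0.619, 0.621 and 0.696 in the siZEB1 cultures. PSAT1 had 3.79 ± 0.157 reads per PSPH read (SD, n = 3) in siNC and 1.04 ± 0.0622 (SD, n = 3) in siZEB1. The ratio of PSPH to PHGDH was 0.552 ± 0.0651 (SD, n = 3) and 0.620 ± 0.0333 (SD, n = 3). These ratios were not tested, and those with PSAT1 repeat its fall.

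**Figure D2:**
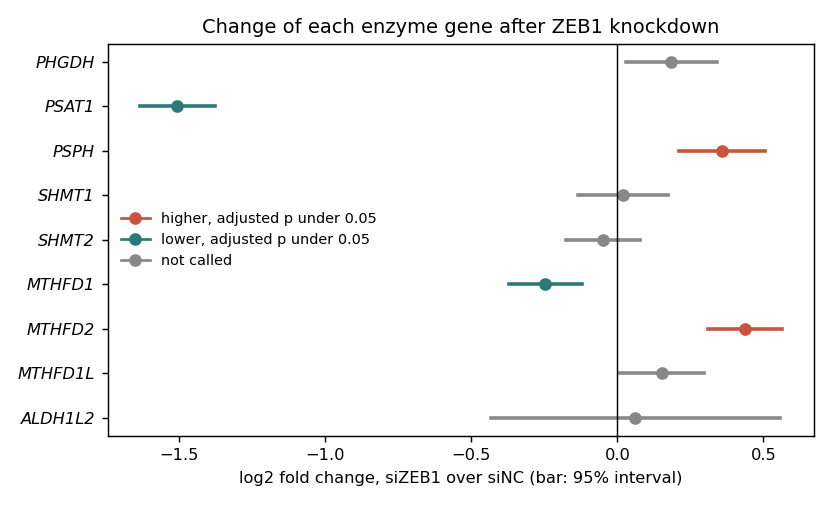
Log2 fold change of siZEB1 over siNC (horizontal axis) for the 9 enzyme genes, with the 95% interval as a bar; colour marks the call at an adjusted p below 0.05. PSAT1 stands alone at -1.51, MTHFD1 lies at -0.25, PSPH and MTHFD2 at 0.36 and 0.44, and the intervals of SHMT1, SHMT2 and ALDH1L2 include 0.

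The serine hydroxymethyltransferases SHMT1 (cytosolic) and SHMT2 (mitochondrial) split serine into glycine and a folate-bound carbon. SHMT1 (ENSG00000176974, chromosome 17 from 18327860 to 18363563, minus strand) had 1003, 1056 and 881 reads in siNC and 933, 939 and 834 reads in siZEB1. SHMT2 (ENSG00000182199, chromosome 12 from 57229327 to 57234935, plus strand) had 6182, 6590 and 6007 reads in siNC and 5587, 5832 and 5130 reads in siZEB1. For both genes the groups overlapped after scaling. SHMT1 was at 46.7 ± 0.844 CPM in siNC and 47.3 ± 3.22 CPM in siZEB1 (n = 3 each, SD), with a log2 FC of 0.02 (95% interval -0.14 to 0.17, adjusted p = 0.867, edgeR). SHMT2 was at 299 ± 11.2 and 289 ± 18.6 CPM (n = 3 each, SD), with a log2 FC of -0.05 (95% interval -0.17 to 0.08, adjusted p = 0.559, edgeR). Both intervals include 0 and span changes in either direction, and neither gene was called.

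MTHFD1 is the cytosolic enzyme that interconverts methylene-, methenyl- and formyl-THF and joins formate to THF. The gene (ENSG00000100714) lies on chromosome 14 from 64388031 to 64463457 on the plus strand. It had 4461, 4610 and 3691 reads in siNC and 3235, 3184 and 3344 reads in siZEB1, or 210, 206 and 191 CPM against 171, 166 and 175 CPM. Each siZEB1 culture lay below each siNC culture. The level was 202 ± 9.65 CPM in siNC and 171 ± 4.62 CPM in siZEB1 (n = 3 each, SD), a log2 FC of -0.25 (SE 0.06, 95% interval -0.37 to -0.12, adjusted p = 0.00304, edgeR).

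MTHFD2 carries out the oxidation of methylene-THF in the mitochondrion and is scarce in most adult tissues but common in tumours. The gene (ENSG00000065911) lies on chromosome 2 from 74198562 to 74217565 on the plus strand. It had 3397, 3288 and 2759 reads in siNC and 3831, 3897 and 3897 reads in siZEB1, or 160, 147 and 143 CPM against 203, 203 and 204 CPM. The groups did not overlap. The level rose from 150 ± 8.73 to 203 ± 0.488 CPM (n = 3 each, SD), a log2 FC of 0.44 (SE 0.06, 95% interval 0.31 to 0.56, adjusted p = 1.94e-05, edgeR). A rise of at least this size was found in 1958 genes, or 13.1% of those tested.

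MTHFD1L releases formate from formyl-THF in the mitochondrion, and ALDH1L2 oxidises formyl-THF to carbon dioxide there. MTHFD1L (ENSG00000120254, chromosome 6 from 150865549 to 151101887, plus strand) had 1796, 2028 and 1709 reads in siNC and 1948, 1739 and 1904 reads in siZEB1. Its second siZEB1 culture, at 90.4 CPM, lay just under the second siNC culture, at 90.6 CPM, and the remaining siZEB1 cultures lay above all siNC cultures. The level was 87.9 ± 3.12 and 97.7 ± 6.56 CPM (n = 3 each, SD), and the log2 FC of 0.15 (95% interval 0.01 to 0.30) had an adjusted p of 0.0851 in edgeR's test. MTHFD1L was called in 1 of 12 alternatives, without that second siZEB1 culture, where the log2 FC was 0.21 with an adjusted p of 0.0473. Without the first siZEB1 culture it was 0.11 with an adjusted p of 0.319. ALDH1L2 (ENSG00000136010, chromosome 12 from 105019784 to 105084577, minus strand) was near the lower limit of what these libraries resolve, with 51, 36 and 31 reads in siNC and 33, 41 and 38 reads in siZEB1. Its log2 FC of 0.06 had a wide 95% interval of -0.43 to 0.56 (adjusted p = 0.86, edgeR). That interval includes 0 and spans changes in either direction, and ALDH1L2 was not called.

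The sum of the 9 enzymes was 1161 ± 9.39 CPM in siNC and 1075 ± 25.9 CPM in siZEB1 (n = 3 each, SD). Without PSAT1, the other 8 summed to 947 ± 3.81 CPM in siNC and 999 ± 26.5 CPM in siZEB1. The lower total in siZEB1 thus came with the fall of PSAT1. The sum of the other 8 was higher by about as much as MTHFD2 alone, at 150 CPM in siNC and 203 CPM in siZEB1. The higher sum therefore does not mean that the 8 rose together.

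For the isozymes that share a reaction across compartments, the mitochondrial reads were divided by the cytosolic reads in each culture. MTHFD2 had 0.761, 0.713 and 0.747 reads per MTHFD1 read in siNC and 1.18, 1.22 and 1.17 in siZEB1. As the genes differ in length, the ratio says how their balance shifted and not which is more abundant. The mean log2 ratio differed by 0.69 between the groups, and MTHFD1L over MTHFD1, at 0.435 ± 0.0305 and 0.573 ± 0.0281 reads (n = 3 each, SD), differed by 0.40. Neither ratio overlapped between the groups. Both repeat the changes of the single genes and share the fall of MTHFD1, and MTHFD1L itself was not called. SHMT2 over SHMT1 was 6.41 ± 0.358 in siNC and 6.12 ± 0.115 in siZEB1 (n = 3 each, SD), and the groups overlapped with a difference of -0.07 in the mean log2 ratio. An exact two-sided permutation test over the cultures gave p = 0.1 for both ratios to MTHFD1, the smallest p that 3 against 3 cultures allow, and p = 0.2 for SHMT2 over SHMT1. As 0.1 lies above the threshold of 0.05, none of the 3 ratios could pass it, with or without adjustment. The ratio of MTHFD1L to MTHFD2, both mitochondrial, was 0.588 ± 0.0516 in siNC and 0.481 ± 0.0318 in siZEB1 (n = 3 each, SD) and was not tested.

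**Figure D3:**
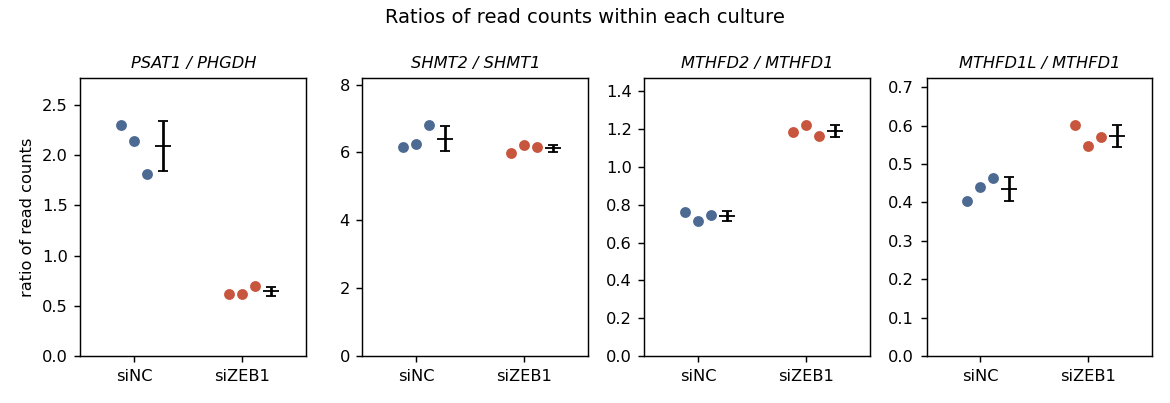
Ratios of read counts between enzyme genes in each culture (vertical axes from 0, no unit); points are cultures and bars are the mean ± SD of 3 cultures. PSAT1 over PHGDH falls from 1.82 or more to 0.696 or less, MTHFD2 over MTHFD1 rises from 0.761 or less to 1.17 or more, and SHMT2 over SHMT1 overlaps between the groups.

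Levels can be compared between genes only per length of transcript. Divided by the length of 1 chosen GENCODE transcript per gene, the siNC levels ran from SHMT2, at 118 CPM per kb, through PSAT1 (97.8), MTHFD1 (64.5), PHGDH (49.2), MTHFD2 (33.6), PSPH (26.5), MTHFD1L (24.4) and SHMT1 (18.9) to ALDH1L2 at 0.248 CPM per kb. No neighbours in this order overlapped over the siNC cultures. In siZEB1, PSAT1 had 34.4 CPM per kb and lay between 32.9 and 36.3, the range of PSPH. With all annotated exonic bases as the length, PSAT1 came first and SHMT2 second, and PHGDH dropped from the fourth to the seventh place, so the order of levels depends on the length used.

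Reads of the enzymes could be shared with other annotated genes if strand was not used in counting, which was not stated. Exons on the opposite strand cover 33.2% of the exonic bases of MTHFD2, most of them from SLC4A5, whose own level was 0.154 CPM in siNC and 0.262 CPM in siZEB1. They cover 11% of MTHFD1, including 1.9% shared with ZBTB25, which was itself lower at a log2 FC of -0.60 (adjusted p = 0.000512, edgeR). Their part in the counts of MTHFD1 was not tested. For PHGDH, PSAT1, PSPH and MTHFD1L no other annotated exon overlaps. The pseudogenes listed under the names of these enzymes, MTHFD2P1, MTHFD2P7 and PSAT1P3, had at most 6 reads in any culture.

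The letters of the PSAT1 messenger RNA are shown because PSAT1 carries the largest change. The 7-mer GAACACA was picked in an earlier examination of these data, in which genes with it in the 3′ untranslated region (3′UTR) were lower in siZEB1, so it supports nothing independently. It was searched on the sense strand of 1 GENCODE transcript per gene and stands in the 3′UTR of 1 of 9 enzymes, PSAT1. A second copy in PSAT1 begins within the stop codon and runs into the 3′UTR. Each site is printed with its 27-base window (GRCh38), the 7-mer in capitals, together with that of PAICS, the purine enzyme with the largest fall among the pathway genes described below.

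PSAT1 3′UTR, chr9:78329424-78329450, plus strand: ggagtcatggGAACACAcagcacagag
PSAT1 stop codon, chr9:78329075-78329101, plus strand: catcagctatGAACACAtcctaaccag
PAICS 3′UTR, chr4:56459625-56459651, plus strand: ttaaattagaGAACACAaataaaatgt

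Over the 12214 tested genes with an annotated 3′UTR, 1314, or 10.8%, held GAACACA, and 45.7% of those were called lower against 21.4% of the 10900 without it. Holders had longer 3′UTRs, with a median of 2832 bases against 895. The PSAT1 3′UTR is 1007 bases long, and the longer 3′UTRs of MTHFD2 (3323 bases) and ALDH1L2 (4634 bases) lack the 7-mer. Of the 55 other pathway genes tested, 5 held it: PAICS and SLC46A1 were lower, CEBPG was higher and the remaining 2 were not called. A match is a description of the letters, and its part in the fall of PSAT1 was not tested.

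ZEB1 binds E-boxes of the letters CAGGTG, which read CACCTG on the other strand. Promoters of 300 bases, from 250 bases before to 50 bases after the start, were found in RefSeq (GRCh38.p14) for 6 of the 9 enzymes. The E-box was present on either strand, in the window of at least 1 start, in 4 of the 6, against 24.1% of 27305 genes counted the same way. Counted by single windows, it was in 6 of 9 windows of these enzymes and in 20.6% of all 35116. The 6 include overlapping windows of MTHFD1L that hold the same E-box, so this count is not separate from the count by gene. The E-box was absent from the windows of PSAT1 and MTHFD1, the enzymes that were lower. A match is a description of the letters, and the part of the E-box in any change was not tested. The windows are shown, with the E-box in capitals, because ZEB1 is the gene that was knocked down; of these 4 enzymes MTHFD2 was higher and the others were not called.

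PHGDH, chr1:119711724-119711750, plus strand: atatgctcacCAGGTGtaggtaagagc
SHMT1, chr17:18363683-18363709, minus strand: gtccctgcccCAGGTGcgcagctgcac
MTHFD2, chr2:74198492-74198518, plus strand: ccttcggctcCACCTGgctcaacagac
MTHFD1L, chr6:150866264-150866290, plus strand: gcccgcagcgCAGGTGggcgtgggcat

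In PHGDH, SHMT1 and MTHFD2 the E-box begins at -200, -149 and -113 bases from the start, and in MTHFD1L the same E-box falls in the windows of 3 of 4 annotated starts. The composite element that ATF4 binds with C/EBP partners, searched on both strands, was found only in MTHFD1L among the 6, as TGATGCAAT, and in 4.45% of all genes counted the same way. MTHFD1L was not called, and the promoters of PSPH, SHMT2 and ALDH1L2 were not analysed here.

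The genes around these enzymes were counted from lists compiled by role. Of 64 genes listed, 55 were tested, with a median log2 FC of 0.09. Of these, 15 were higher and 11 lower, against 19% and 21.2% of all genes tested. In the list around 3-phosphoglycerate, the substrate of PHGDH, 1 of 5 genes was higher and 1 lower: BPGM rose by 0.37 on the log2 scale (adjusted p = 0.00156, edgeR) and ENO2 fell by 0.29 (adjusted p = 0.00991, edgeR), with its call lost without siZEB1 culture 1 (adjusted p = 0.0641). Among transporters of folate, serine and glycine, 3 of 9 were higher and 2 lower. SLC6A9, a glycine transporter, rose by 0.65 (adjusted p = 0.000176), and SLC1A4, which carries serine, rose by 0.36 (adjusted p = 0.00241). The folate carriers SLC19A1 and SLC46A1 fell by 0.41 and 0.39 (adjusted p = 0.000186 and 0.0115), although exons on the opposite strand cover 61.5% of SLC46A1 and its call was lost without siNC culture 2 (adjusted p = 0.0511).

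Of the enzymes that interconvert folates, edgeR called 0 of 9 higher and 1 lower, against 19% and 21.2% of all genes tested. At an unadjusted p below 0.05 the counts were 1 higher and 2 lower, and with DESeq2 0 higher and 1 lower. The called gene was FPGS, which adds the glutamate tail that keeps folate in the cell, at a log2 FC of -0.52 (adjusted p = 9.66e-05). The paralogs of 2 enzymes of the set were not called: MTHFD2L had a log2 FC of -0.02 (adjusted p = 0.926) and ALDH1L1, at about 2 CPM, -0.62 (adjusted p = 0.0687). In the list for glycine cleavage and serine or glycine breakdown, 1 of 6 was higher and 1 lower. GCAT, which acts in threonine breakdown to glycine, went from 8.88 ± 0.0405 to 4.40 ± 1.04 CPM (n = 3 each, SD), a log2 FC of -1.01 (adjusted p = 4.86e-05). SDSL had a log2 FC of 0.49 with an adjusted p of 0.0476, and lost its call in 9 of 12 alternatives.

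Purine synthesis and mitochondrial initiation use formyl-THF, and in that list edgeR called 0 of 7 higher and 2 lower (1 higher and 2 lower at an unadjusted p below 0.05, and 0 higher and 2 lower with DESeq2). PAICS, a bifunctional enzyme of purine synthesis, had 593, 585 and 569 CPM in the siNC cultures and 238, 247 and 250 CPM in the siZEB1 cultures. Its log2 FC was -1.25 (SE 0.05, adjusted p = 1.31e-11), and PFAS fell by 0.50 (adjusted p = 6.08e-06). PAICS and PFAS do not themselves take up formyl-THF, and the formyl-THF enzymes GART and ATIC were not called.

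In the methionine cycle and transsulfuration, where methyl groups from folate are used, edgeR called 3 of 8 genes higher and 4 lower. The shares over all genes tested were 19% higher and 21.2% lower. With DESeq2, 3 of the 8 were higher and 2 lower. CTH, which makes cysteine, rose by 0.42 (adjusted p = 0.00291), MAT2B by 0.40 (adjusted p = 0.000138) and MTAP by 0.23 (adjusted p = 0.0154). MTR, the folate-dependent methionine synthase, fell by 0.27 (adjusted p = 0.028) with overlapping groups. The remaining genes called lower fell by less than MTR, and their groups did not overlap. MTR and MTAP lost their calls in 5 and 3 of 12 alternatives.

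ATF4 is a stress-induced transcription factor that is known to drive PHGDH, PSAT1, PSPH, SHMT2 and MTHFD2. Of the 11 genes tested in the list of ATF4, its partners and other targets, edgeR called 7 higher and 0 lower. Of all genes tested, 19% were higher and 21.2% lower. The median log2 FC of the list was 0.30 and its lowest value was -0.14, and 4 of its genes were not called. The count lower in the list was 0 also at an unadjusted p below 0.05 and with DESeq2. ATF4 rose from 400 ± 14.3 to 473 ± 27 CPM (n = 3 each, SD), a log2 FC of 0.24 (SE 0.06, adjusted p = 0.00251, edgeR). TRIB3 rose by 1.02 (adjusted p = 3.84e-09), SESN2 by 0.90 (adjusted p = 6.98e-08), DDIT3 by 0.87 (adjusted p = 7.63e-06) and CHAC1 by 0.49 (adjusted p = 0.0105). The groups overlapped for CHAC1, which lost its call without siNC culture 1 (adjusted p = 0.0532) and without siZEB1 culture 2 (adjusted p = 0.0751). Exons on the opposite strand cover 31.6% of the exonic bases of DDIT3. The rises of TRIB3 and DDIT3 were known when the list was compiled, so the list is not independent evidence of its direction. Among the enzymes named as targets, PSPH and MTHFD2 were higher, PHGDH and SHMT2 were not called and PSAT1 was lower.

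**Figure D4:**
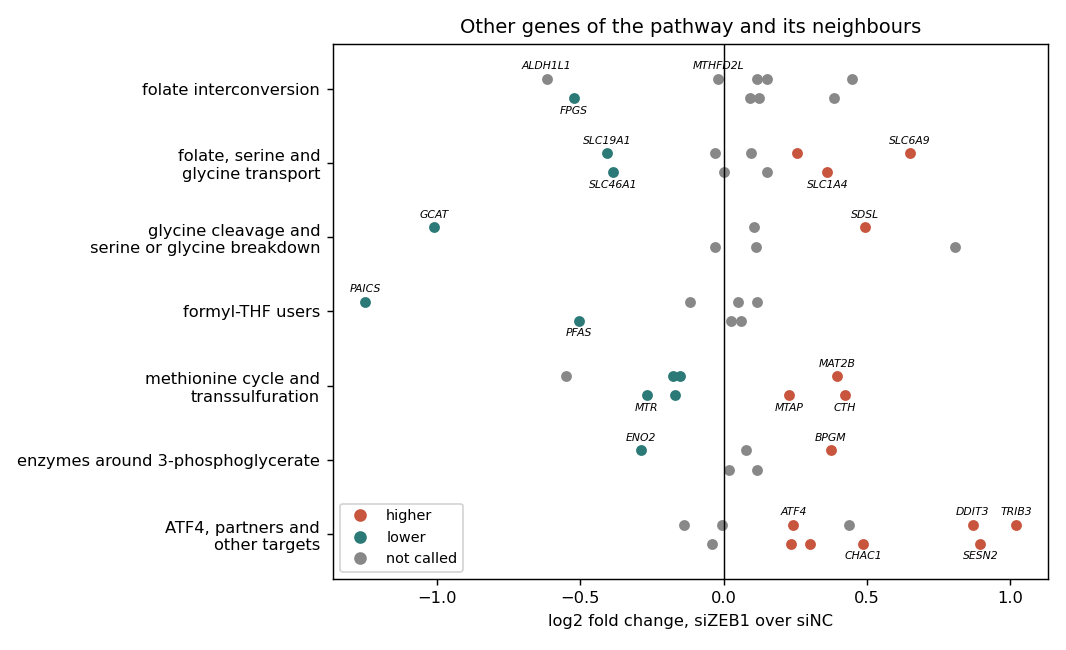
Log2 fold change of siZEB1 over siNC (horizontal axis) for the 55 tested genes of 7 lists around the enzymes; each point is a gene, and colour marks the call at an adjusted p below 0.05. In the ATF4 list 7 of 11 genes are higher and 0 lower, against 19% and 21.2% of all genes tested. The rises of TRIB3 and DDIT3 were known when this list was compiled, so it is not independent evidence of its direction. The other lists hold calls in both directions or few calls, with PAICS lowest at -1.25.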

How the data were processed

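Total RNA was sequenced from 6 SW480 cultures, and the authors deposited raw read counts per Ensembl gene, 1 table per culture. The submitters' processing notes name Trimmomatic, HISAT2, SAMtools, featureCounts and hg38; versions, annotation and strand setting were not given in the sources used here. Without strand, reads of genes overlapping on opposite strands cannot be told apart. Groups followed the treatment label. Genes were kept by filterByExpr, scaled by TMM and tested with edgeR 4.0.16 (quasi-likelihood, no covariates; R 4.3.3, limma 3.58.1). The alternatives used DESeq2 1.42.0, other scaling, filters and thresholds, the replicate number as a block, and each culture left out. The biological coefficient of variation was 6.58%. GENCODE 29 (GRCh38) held 31059 of the 32029 identifiers and gave coordinates and, for protein-coding genes, 3′UTRs. RefSeq gave promoters. The edgeR fit was tested on simulated data.

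The members and lists were chosen with earlier results of these data known. Named genes were all members, ZEB1, up to 4 called genes per list with the largest change and a mean of at least 1 CPM, ATF4, both paralogs, and pseudogenes of members. CEBPG, GART, ATIC, ZBTB25, SLC4A5 and the marker genes were named after their values were seen.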

Additional observations from a re-analysis of the deposited data

How the results depend on the processing

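PSAT1, PSPH, MTHFD1, MTHFD2 and ZEB1 kept their direction and their call in all 12 alternatives to the test, scaling, filter, block and cultures, with log2 fold changes of -1.53 to -1.47 for PSAT1, 0.31 to 0.38 for PSPH, -0.29 to -0.22 for MTHFD1 and 0.40 to 0.48 for MTHFD2. With a fold above 1.5 as the threshold, at p below 0.05 or below 0.001, 1 of the 4 called enzymes was left (0 higher, 1 lower), since PSAT1 alone changed by that much, and 4 other pathway genes were higher instead of 15. The number of other pathway genes that were lower, 11, became 6 at an adjusted p below 0.01, 3 at a fold above 1.5 with p below 0.05, and 2 with p below 0.001. It ranged from 6 to 11 when 1 culture was left out, with 6 without siNC culture 2 and 7 without siZEB1 culture 1 or 2. The replicate number as a block gave 4 enzymes called as before, and 7 other pathway genes lower. Same-numbered cultures did not deviate together (correlations of -0.052, -0.088 and -0.20). The correlations thus gave no sign of pairing, and whether the numbers pair the cultures was not stated. PHGDH was also called with DESeq2 (adjusted p = 0.0494) and with median-of-ratios size factors (adjusted p = 0.0477).

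Directions turned for SHMT1, SHMT2, ALDH1L2 and MTHFD2L, which were not called; CEBPG, GART, ATIC, ZBTB25, SLC4A5 and the marker genes were not followed one by one under the alternatives. The log2 fold change of SHMT1 was -0.014 without siZEB1 culture 1 and -0.0055 without siZEB1 culture 2, and that of SHMT2 was 0.0054 without siZEB1 culture 3; leaving out a culture in turn gave at most 0.075 for SHMT1 and at least -0.083 for SHMT2. ALDH1L2 was at -0.044 without siNC culture 2, -0.032 without siNC culture 3 and -0.0047 without siZEB1 culture 2, and reached 0.28 without siNC culture 1. MTHFD2L was at 0.017 without siNC culture 1 and 0.071 without siZEB1 culture 1, and reached -0.099 without siZEB1 culture 2. The cause of these changes was not tested. With 3 cultures a group, depth limits ALDH1L2 most, at 31 to 51 reads per culture.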
